A study of Mus musculus with 34 samples.

Results

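Transcripts of 9 genes were followed in the regenerating liver: the p53 targets *Cdkn1a*, *Btg2*, *Mdm2*, *Ccng1*, *Trp53inp1* and *Phlda3*, and the 3 Gadd45 genes *Gadd45a*, *Gadd45b* and *Gadd45g*. They were picked by gene symbol from the 78298 genes of the deposited count table, and all 9 were among the 14980 genes that had enough reads to be tested. Bulk polyA RNA-seq had been performed on liver tissue of 34 adult male mice of a C57/Bl6 background, 1 library per mouse. SIRTintKO mice carried floxed *Sirt1* alleles and a Villin-Cre transgene, which drives recombination in the intestinal epithelium, and the WT mice carried the floxed alleles without Cre. Livers were taken from untreated mice (0 hours; 6 WT and 6 SIRTintKO) or at 6 hours (6 WT and 5 SIRTintKO) or 24 hours (4 WT and 7 SIRTintKO) after partial hepatectomy (PHx), in which the left lateral and median lobes were resected. Recombination is intestinal, so *Sirt1* in the liver is no check of the labels, and its mean level lay between 8.66 CPM in SIRTintKO mice at 24 hours and 13.6 CPM in WT mice at 24 hours.

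p53 is a transcription factor that is stabilised by DNA damage and other stresses and that halts the cell cycle, repairs DNA or triggers cell death through its target genes. *Cdkn1a* encodes p21, the inhibitor of cyclin-dependent kinases that carries much of the p53 arrest, and *Mdm2* encodes the ubiquitin ligase that degrades p53 in a feedback loop. Gadd45 proteins are small stress-induced proteins that bind PCNA, p21 and the MAP kinase kinase kinase MEKK4, and *Gadd45b* is also a target of NF-kB that is induced early after hepatectomy.

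To show the regulatory sequence that these genes carry, the 250 bases before the RefSeq transcription start (GRCm38.p6) were searched in the 9 start windows that matched 8 of the 9 genes. The counts themselves were made on GRCm39, and these windows serve for their letters alone. Capitals mark the motifs found on either strand: the p53 decamer, of which a full p53 response element holds a pair, the cAMP response element (TGACGTCA), the AP-1 site (TGANTCA), the E-box (CACGTG) and the NF-kB consensus. The TATA box (TATAAA) was searched as well and is left in lower case. The paired p53 decamers contain 1 of the single decamers, and the other matches did not overlap. *Cdkn1a* has 2 annotated starts, and the upstream one is shown because it holds the paired p53 decamers. *Btg2*, *Gadd45b* and *Gadd45g* are shown because each was called in at least 1 comparison after PHx and they carry motifs other than the p53 decamer.
Cdkn1a, upstream start, chr17:29090729-29090978, plus strand: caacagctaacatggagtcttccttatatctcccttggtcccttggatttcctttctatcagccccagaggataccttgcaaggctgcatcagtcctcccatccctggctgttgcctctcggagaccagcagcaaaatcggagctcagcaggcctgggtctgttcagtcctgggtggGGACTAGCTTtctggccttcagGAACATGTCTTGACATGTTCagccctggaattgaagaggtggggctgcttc
Btg2, chr1:134079156-134079405, minus strand: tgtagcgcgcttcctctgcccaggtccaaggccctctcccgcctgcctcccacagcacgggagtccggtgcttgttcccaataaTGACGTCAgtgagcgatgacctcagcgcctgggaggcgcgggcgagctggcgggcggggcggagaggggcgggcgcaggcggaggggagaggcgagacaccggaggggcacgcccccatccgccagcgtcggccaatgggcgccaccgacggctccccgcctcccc
Gadd45b, chr10:80929841-80930090, plus strand: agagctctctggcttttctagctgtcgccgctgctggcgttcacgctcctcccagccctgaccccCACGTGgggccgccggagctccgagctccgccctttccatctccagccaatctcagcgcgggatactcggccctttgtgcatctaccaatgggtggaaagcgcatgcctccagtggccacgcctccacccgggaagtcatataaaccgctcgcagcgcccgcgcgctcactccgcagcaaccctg
Gadd45g, chr13:51846425-51846674, plus strand: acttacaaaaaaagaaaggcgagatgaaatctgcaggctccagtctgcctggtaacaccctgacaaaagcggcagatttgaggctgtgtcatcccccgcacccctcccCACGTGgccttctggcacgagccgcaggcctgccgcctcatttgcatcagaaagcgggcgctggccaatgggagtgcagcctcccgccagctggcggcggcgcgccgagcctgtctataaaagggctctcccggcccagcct

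The upstream *Cdkn1a* window held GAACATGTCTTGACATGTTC, a pair of p53 decamers with 1 mismatch to the consensus, from 51 to 32 bases before the start. Such a pair with at most 2 mismatches was present in 0.134% of the 32851 promoter windows of the same length. Single p53 decamers, present in 7.13% of all windows, were found in the upstream *Cdkn1a* window outside the pair (GGACTAGCTT, from 73 to 64 bases before the start), *Mdm2* (GAACTTGCCT), *Ccng1* (GGGCAAGCCT) and *Gadd45a* (GGGCTAGCCC). The *Btg2* window held a cAMP response element, as did 1.55% of all windows, and the *Gadd45b* and *Gadd45g* windows each held an E-box, as did 6.02%, and a TATA box, as did 12.4%. AP-1 and NF-kB letters, present in 6.75% and 7.25% of all windows, were found in none of the 9. The *Phlda3* window and the downstream *Cdkn1a* window held none of these motifs. A match is a string of letters and not a measured site.

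Each library held 14892122 to 23480492 counts (median 16807340). Levels are in CPM, counts scaled to the size of the library after TMM correction, and are compared between libraries and not between genes, because they are not corrected for length. Reads were plentiful for most of the genes, but *Phlda3* rested on 5 to 68 reads per library, *Gadd45b* on 2 to 820 and *Gadd45a* on 20 to 849. Changes are fitted log2 fold changes ± SE from edgeR's quasi-likelihood test on all 34 libraries, with p-values adjusted over the 14980 genes, and a gene was called where the adjusted p was under 0.05 and the change over 1 on the log2 scale. The summed level of 8 hepatocyte markers was 50495 to 103895 CPM in every library, so the tissue label held. In bulk liver tissue, fewer cells of a type and less RNA per cell cannot be told apart. Untreated mice carry library names from a separate number range, so handling and surgery cannot be told apart in the comparisons with 0 hours, and those comparisons share their 0 hour libraries.

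**Figure D1:**
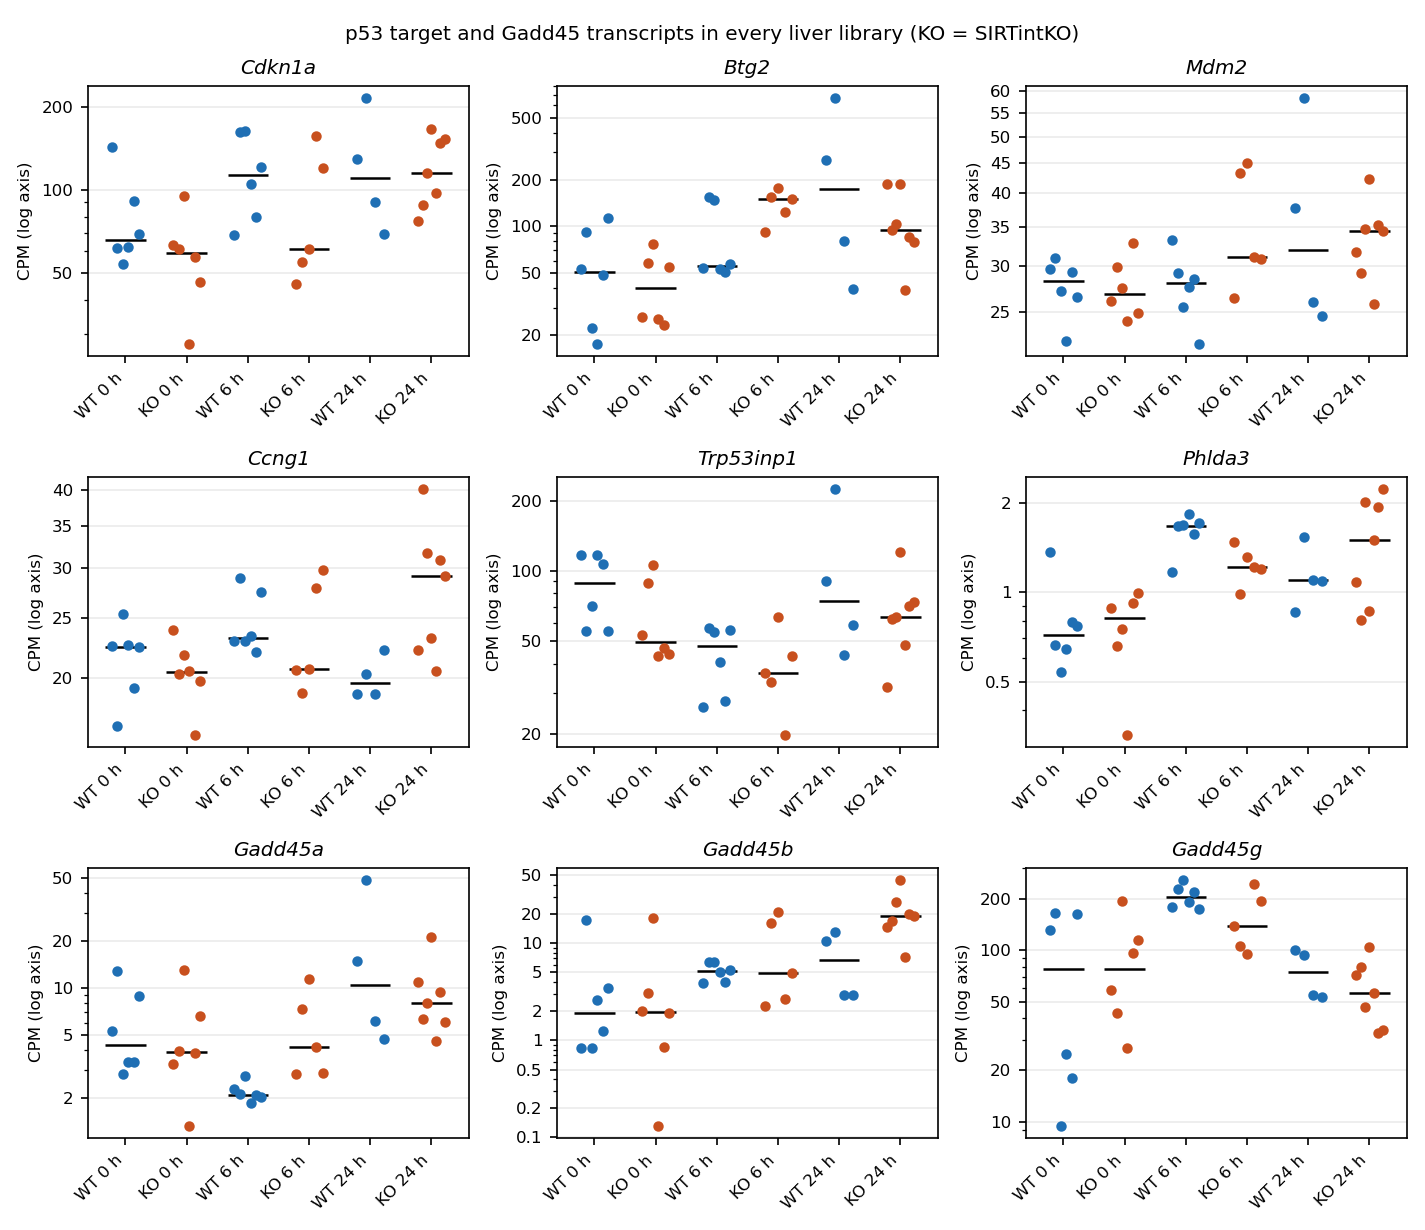
CPM on a log axis for each gene, with 1 point per library, WT in blue and SIRTintKO (KO) in orange, and the group median as a black bar. *Gadd45a* sat between 1.84 and 2.74 CPM in all 6 WT livers at 6 hours, while WT replicate 2 at 24 hours reached 48.5 CPM.

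At 6 hours after PHx, 3 of the 9 genes were called in WT mice and 1 in SIRTintKO mice, where 15.6% and 16.6% of all tested genes were called. In WT livers *Gadd45g* and *Phlda3* rose and *Gadd45a* fell. In SIRTintKO livers *Btg2* rose. The median log2 fold change of the 9 genes was 0.22 in WT and 0.59 in SIRTintKO mice, beside 0.02 and 0.01 over all tested genes. At 24 hours, 2 genes were called higher in WT mice (*Btg2* and *Gadd45a*) and 3 in SIRTintKO mice (*Cdkn1a*, *Btg2* and *Gadd45b*), where 15.7% and 23% of all genes were called in either direction and 8.32% and 11.9% were called higher. The medians at 24 hours were 0.53 and 0.83, beside 0.02 and 0.04 over all genes. No member was called lower at 24 hours, although *Gadd45g* lay at -0.17 in WT and -0.55 in SIRTintKO mice.

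*Cdkn1a* was present at 53.8 to 143 CPM in untreated WT livers (median 65.6) and at 27.8 to 94.997 CPM in untreated SIRTintKO livers (median 59.0). At 6 hours the WT livers ranged from 68.3 to 163 CPM (median 113), and the SIRTintKO livers gave 45.5, 54.9, 61.1, 157 and 120.2 CPM. At 24 hours the WT livers gave 129.7, 214, 90.3 and 69.2 CPM, and the SIRTintKO livers ranged from 76.8 to 166 CPM (median 115). The groups overlapped in every comparison, and at 6 hours the SIRTintKO livers fell into 3 low and 2 high values. *Cdkn1a* rose in SIRTintKO mice between 0 and 24 hours by 1.04 ± 0.31 (adjusted p = 0.00648). In WT mice the change was 0.65 ± 0.35 (adjusted p = 0.152), and 0.27 ± 0.37 (adjusted p = 0.655) without WT replicate 2 at 24 hours. The difference between these changes was 0.39 (95% interval -0.57 to 1.36, adjusted p = 0.759), and it ranged from 0.15 without WT 0 hour replicate 1 to 0.77 without WT 24 hour replicate 2. Between the genotypes at 24 hours *Cdkn1a* differed by -0.06 (95% interval -0.77 to 0.64, adjusted p = 0.934), and by 0.32 ± 0.37 (adjusted p = 0.642) without that WT liver. The call at 24 hours was lost without any 1 of 4 libraries (SIRTintKO 0 hour replicates 4 and 6 and SIRTintKO 24 hour replicates 4 and 7), with changes of 0.88 to 0.99, just under the threshold of 1.

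*Btg2*, an antiproliferative gene that recruits deadenylases to mRNA and also behaves as an immediate-early gene, rose in SIRTintKO mice at both times and in WT mice at 24 hours. Untreated livers held 17.6 to 114 CPM in WT mice (median 50.8) and 23.3 to 76.6 CPM in SIRTintKO mice (median 40.3). At 6 hours the SIRTintKO livers gave 91.4, 155, 176, 123 and 149.8 CPM, every one above every untreated SIRTintKO liver, whereas in WT mice 2 livers stood at 154 and 147 CPM and the other 4 at 50.7 to 57.3 CPM. Groups did not overlap for 26.2% of all tested genes in the SIRTintKO comparison. The change at 6 hours was 1.66 ± 0.53 in SIRTintKO mice (adjusted p = 0.0141) and 0.57 ± 0.51 in WT mice (adjusted p = 0.398), with a difference of 1.09 between them (95% interval -0.40 to 2.57, adjusted p = 1).

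At 24 hours the 4 WT livers held 269, 667, 81.0 and 39.8 CPM of *Btg2*, and the SIRTintKO livers held 38.9 to 187 CPM (median 94.9). WT replicates 1 and 2 were above every SIRTintKO liver, and WT replicates 3 and 4 were within the range of untreated WT livers. The fitted rise in WT mice was 2.19 ± 0.56 (adjusted p = 0.00326), and without replicate 2 it was 1.17 ± 0.54 (adjusted p = 0.123). In SIRTintKO mice the rise was 1.33 ± 0.50 (adjusted p = 0.0272), and it passed the threshold in 8 of the 13 fits that left out 1 library of the groups compared. It was lost without SIRTintKO 0 hour replicate 1, 4 or 5 or SIRTintKO 24 hour replicate 1 or 4, at 1.13 to 1.21 with adjusted p of 0.0610 to 0.0679. From 6 to 24 hours in WT mice *Btg2* rose by 1.62 ± 0.56 (adjusted p = 0.0422), where 7.16% of all genes were called, and this was 0.61 ± 0.55 (adjusted p = 0.509) without replicate 2 at 24 hours. The call was also lost, at 1.52 to 1.65, without WT 24 hour replicate 1 or without WT 6 hour replicate 1, 4, 5 or 6. Between the genotypes at 24 hours *Btg2* differed by -1.26 ± 0.53 (adjusted p = 0.146), and by -0.24 ± 0.54 (adjusted p = 0.829) without WT replicate 2.

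*Mdm2* was present before surgery at 22.2 to 30.95 CPM in WT and 24.1 to 32.8 CPM in SIRTintKO livers. At 6 hours the WT range was 22.02 to 33.2 CPM, and the SIRTintKO livers gave 26.4, 43.3, 45.1, 31.1 and 30.8 CPM. At 24 hours the WT livers gave 37.8, 58.3, 26.02 and 24.6 CPM and the SIRTintKO livers 25.8 to 42.3 CPM (median 34.5). The high values were SIRTintKO replicates 2 and 3 at 6 hours and WT replicate 2 at 24 hours, and all groups overlapped. *Mdm2* passed the adjusted threshold in no comparison, with log2 fold changes of 0.00 in WT and 0.36 in SIRTintKO mice at 6 hours and 0.41 and 0.28 at 24 hours. Without WT replicate 2 the WT value at 24 hours was 0.095 ± 0.16 (adjusted p = 0.734).

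*Ccng1* encodes cyclin G1, a p53 target that recruits a phosphatase to MDM2. It ranged from 16.8 to 25.3 CPM in untreated WT and from 16.3 to 23.9 CPM in untreated SIRTintKO livers. At 24 hours the WT livers gave 18.9, 20.3, 18.9 and 22.2 CPM, and the SIRTintKO livers gave 20.6 to 40.1 CPM (median 29.2). 5 of the 7 SIRTintKO livers exceeded the highest WT liver, and replicate 2, at 40.1 CPM, was also the liver with the most neutrophil marker RNA, 958 CPM summed over the 7 tested markers against 23.4 to 210.4 CPM in the other 6. *Ccng1* was 0.49 ± 0.15 log2 units higher in SIRTintKO than in WT livers at 24 hours (adjusted p = 0.0499), below the fold threshold, and 5.81% of all genes passed the adjusted p there. Without that liver the difference was 0.38 ± 0.14 (adjusted p = 0.121). Against 0 hours it changed by 0.47 ± 0.13 in SIRTintKO mice (adjusted p = 0.00463) and by -0.10 ± 0.15 in WT mice (adjusted p = 0.655), and the difference between these changes was 0.56 (95% interval 0.15 to 0.98, adjusted p = 0.255). At 6 hours it lay at 22.01 to 28.9 CPM in WT livers and at 20.6, 18.9, 20.7, 27.9 and 29.8 CPM in SIRTintKO livers. The part of neutrophils in the *Ccng1* values was not tested.

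*Trp53inp1*, which encodes a p53-induced regulator of autophagy and cell death, was at 55.3 to 117 CPM in untreated WT livers (median 88.7) and 43.1 to 106 CPM in untreated SIRTintKO livers (median 49.7). At 6 hours it was at 26.1 to 56.7 CPM in WT livers (median 47.7) and at 36.4, 33.2, 63.5, 19.8 and 43.3 CPM in SIRTintKO livers. At 24 hours the WT livers gave 90.2, 224, 43.6 and 58.6 CPM, and the SIRTintKO range was 31.7 to 119.9 CPM (median 63.5). Median levels were lowest at 6 hours in both genotypes, and the groups overlapped. The change at 6 hours in WT mice, -0.998 ± 0.35 (adjusted p = 0.0235), stopped just short of the fold threshold, and in SIRTintKO mice it was -0.69 ± 0.37 (adjusted p = 0.136). The rise from 6 to 24 hours in WT mice was called at 1.25 ± 0.38 (adjusted p = 0.0221), but was 0.57 ± 0.36 (adjusted p = 0.331) without WT replicate 2 at 24 hours.

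*Phlda3*, an inhibitor of AKT membrane recruitment, was the scarcest of the p53 targets in reads. Untreated livers held 0.541 to 1.37 CPM in WT and 0.331 to 0.993 CPM in SIRTintKO mice. At 6 hours the WT livers were at 1.17 to 1.84 CPM, so that 5 of 6 exceeded every untreated WT liver, and the SIRTintKO livers were at 1.48, 0.986, 1.32, 1.21 and 1.198 CPM. At 24 hours WT livers gave 0.861, 1.54, 1.10 and 1.10 CPM and SIRTintKO livers 0.807 to 2.23 CPM. *Phlda3* rose at 6 hours in WT mice by 1.01 ± 0.27 (adjusted p = 0.00324), and in SIRTintKO mice it changed by 0.70 ± 0.28 (adjusted p = 0.0461), below the fold threshold. At 24 hours in SIRTintKO mice the change was 0.99 ± 0.26 (adjusted p = 0.00208) and in WT mice 0.53 ± 0.29 (adjusted p = 0.165). The WT call at 6 hours was lost in 8 of the 12 fits that left out 1 library of the groups compared (0.92 to 1.00; all but WT 0 hour replicates 1 and 5 and WT 6 hour replicates 1 and 5), and the SIRTintKO value at 24 hours was called in 6 of 13 (1.03 to 1.09).

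**Figure D2:**
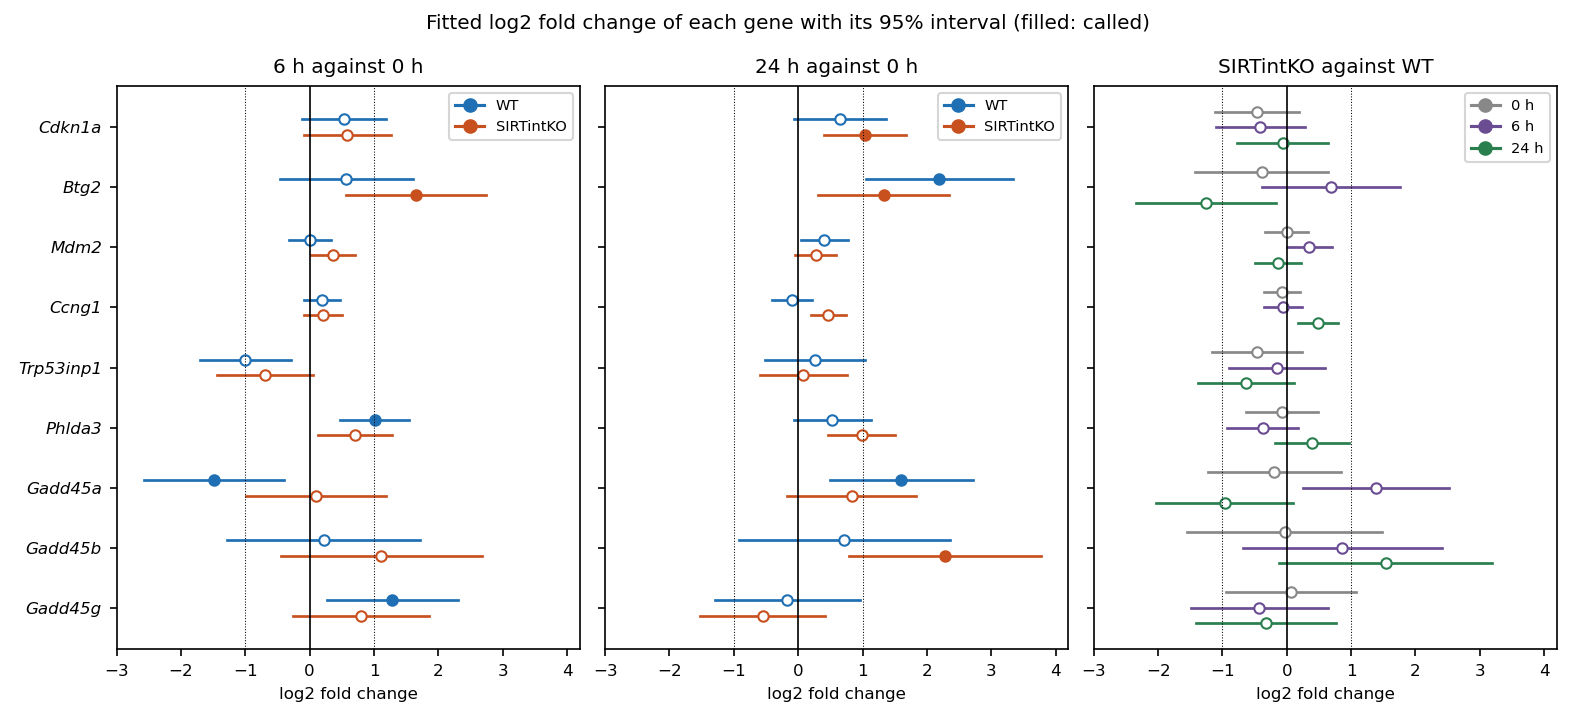
Fitted log2 fold change with its 95% interval for each gene, at 6 hours and at 24 hours against 0 hours in WT (blue) and SIRTintKO (orange) mice, and SIRTintKO against WT at 0 (grey), 6 (purple) and 24 hours (green), with filled points for called changes and dotted lines at -1 and 1. *Gadd45a* at 6 hours lay at -1.48 in WT and 0.10 in SIRTintKO mice, and no point of the genotype panel is filled.

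*Gadd45a*, the p53-inducible member of its family, fell in WT mice at 6 hours and rose again by 24 hours. Untreated WT livers held 2.82 to 12.8 CPM (median 4.35), the 6 WT livers at 6 hours held 1.84 to 2.74 CPM (median 2.09), and the 4 WT livers at 24 hours held 14.8, 48.5, 6.13 and 4.73 CPM. All WT livers at 6 hours were below all WT livers at both other times. Groups did not overlap for 24.1% of all genes between 0 and 6 hours and for 7.36% between 6 and 24 hours. The fall was -1.48 ± 0.54 (adjusted p = 0.0286) and the rise from 6 to 24 hours 3.08 ± 0.58 (adjusted p = 0.000527). The rise passed the threshold in all 10 fits that left out 1 library of the groups compared, at 1.98 without WT replicate 2 at 24 hours, and the fall was lost without WT 0 hour replicate 2 (-1.12, adjusted p = 0.108) or replicate 6 (-1.36, adjusted p = 0.0576).

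In SIRTintKO mice *Gadd45a* was at 1.33 to 13.03 CPM before surgery (median 3.91), at 2.82, 7.32, 11.3, 4.19 and 2.88 CPM at 6 hours, and at 4.60 to 20.98 CPM at 24 hours (median 8.03). Every SIRTintKO liver at 6 hours was above every WT liver at that time, by a margin of 2.82 against 2.74 CPM at the nearest. These nearest livers, SIRTintKO replicate 1 and WT replicate 3, each held 44 reads, so their order rests on the scaling alone. Groups did not overlap for 0.474% of all genes in that comparison. The difference at 6 hours was 1.39 ± 0.56 (unadjusted p = 0.0182, adjusted p = 0.736), and 0 of the 14980 genes passed the adjusted threshold, with 976 at an unadjusted p under 0.05. Between 0 and 6 hours the change in SIRTintKO mice exceeded that in WT mice by 1.58 ± 0.75 (95% interval 0.05 to 3.12, adjusted p = 1). At 24 hours *Gadd45a* was called against 0 hours in WT mice at 1.60 ± 0.55 (adjusted p = 0.0230), and this value was 0.49 ± 0.53 (adjusted p = 0.563) without replicate 2. It was also just lost without WT 0 hour replicate 3 (1.45, adjusted p = 0.0522). In SIRTintKO mice it was 0.83 ± 0.49 (adjusted p = 0.159).

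*Gadd45b* rose in SIRTintKO mice at 24 hours by 2.29 ± 0.73 (adjusted p = 0.0103), the largest change against 0 hours among the 9 genes. Untreated SIRTintKO livers held 0.133 to 18.2 CPM (median 1.97), where the lowest value was 2 reads and replicate 3 alone was above 3.09 CPM. At 24 hours the 7 SIRTintKO livers held 14.6, 16.9, 26.6, 44.5, 7.18, 20.2 and 18.9 CPM, each above 5 of the 6 untreated livers. Without SIRTintKO 0 hour replicate 3 the change was 3.72 ± 0.75 (adjusted p = 0.000200). At 6 hours the SIRTintKO livers gave 2.24, 16.1, 21.2, 2.67 and 4.97 CPM, and the change of 1.11 ± 0.77 (adjusted p = 0.257) became 2.55 ± 0.76 (adjusted p = 0.00908) without that untreated liver.

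WT livers held *Gadd45b* at 24 hours at 10.45, 13.1, 2.93 and 2.94 CPM, after 3.94 to 6.42 CPM at 6 hours and 0.835 to 17.4 CPM before surgery (median 1.92). Untreated WT replicate 2 stood at 17.4 CPM, with the next highest at 3.46 CPM. The change at 24 hours was 0.72 ± 0.80 (adjusted p = 0.514), and 2.02 ± 0.79 (adjusted p = 0.0463) without that liver. SIRTintKO livers differed from WT livers at 24 hours by 1.54 ± 0.82 (95% interval -0.12 to 3.20, adjusted p = 0.251), and 6 of the 7 SIRTintKO livers were above all 4 WT livers. The change from 0 hours was larger in SIRTintKO mice by 1.57 ± 1.09 (adjusted p = 0.555). This difference was 0.26 ± 1.01 (adjusted p = 0.934) without untreated WT replicate 2 and 3.00 ± 1.02 (adjusted p = 0.270) without untreated SIRTintKO replicate 3.

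At 24 hours 8.32% of all tested genes were called higher in WT mice and 11.9% in SIRTintKO mice. NF-kB targets are the class to which *Gadd45b* belongs. Of the 9 listed, 0 were called in WT mice at 24 hours (median 0.30) and 7 were called higher in SIRTintKO mice (median 1.87). Among them *Tnfaip3*, a feedback inhibitor of NF-kB, changed by 3.95 (adjusted p = 8.81e-05), *Icam1*, an adhesion molecule for leukocytes, by 2.90 (adjusted p = 6.26e-05) and *Relb*, an NF-kB subunit, by 2.45 (adjusted p = 0.000217). *Tnfaip3* and *Birc3* were called higher in SIRTintKO than in WT livers at 24 hours, by 2.74 (adjusted p = 0.0448) and 1.38 (adjusted p = 0.0489). No other of the 9 was called between genotypes there, where 1.38% of all tested genes were called higher. All 7 tested neutrophil markers were also called higher in SIRTintKO mice at 24 hours, and 4 were in WT mice. Their summed level was 23.4 to 958 CPM in SIRTintKO livers and 7.91 to 120.3 CPM in WT livers at 24 hours. The 958 CPM came from SIRTintKO replicate 2, whose *Gadd45b* was 16.9 CPM, and the next highest SIRTintKO liver held 210 CPM. Between genotypes at 24 hours 1 of the 7 was called. In SIRTintKO mice at 24 hours 5 of 8 monocyte and macrophage markers and 4 of 6 cholangiocyte markers were called higher as well. In WT mice 3 of each were, and 2 of the monocyte and macrophage markers were called lower. The part of these cell types in the *Gadd45b* level was not tested.

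*Gadd45g*, the most variable of the 9 genes in untreated WT livers after *Gadd45b*, stood there at 131, 165 and 163 CPM in replicates 1, 2 and 6 and at 9.49, 24.7 and 17.9 CPM in replicates 3, 4 and 5. At 6 hours the 6 WT livers lay at 174 to 256 CPM (median 205), above every untreated WT liver and every WT liver at 24 hours, which gave 101, 93.9, 55.0 and 53.6 CPM. SIRTintKO livers gave 26.8 to 195 CPM before surgery (median 77.4), 138, 106, 95.2, 242 and 192 CPM at 6 hours and 32.9 to 104 CPM at 24 hours (median 56.2). The rise at 6 hours was 1.28 ± 0.50 in WT mice (adjusted p = 0.0427) and the change in SIRTintKO mice 0.80 ± 0.52 (adjusted p = 0.229). From 6 to 24 hours in SIRTintKO mice *Gadd45g* fell by 1.35 on the log2 scale (adjusted p = 0.0412; 10.6% of genes called), and in WT mice the difference was -1.45 ± 0.58 (adjusted p = 0.0827). The WT call at 6 hours was lost without WT 0 hour replicate 3, 4 or 5 or WT 6 hour replicate 1, 2, 3, 4 or 5, with changes of 1.05 to 1.31 and adjusted p of 0.0511 to 0.0962, and the SIRTintKO call without SIRTintKO 6 hour replicate 1, 4 or 5 or SIRTintKO 24 hour replicate 1, 3, 5, 6 or 7, with adjusted p of 0.0504 to 0.126.

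No member was called between SIRTintKO and WT livers at 0, 6 or 24 hours, where 0%, 0% and 2.68% of all genes were called, and none in either interaction, where 0% and 0.00668% were. With DESeq2 the count of members was 0 in each of these 5 comparisons as well. At an unadjusted p under 0.05 the members numbered 0, 2 and 2 between genotypes at 0, 6 and 24 hours, where 1.07%, 6.52% and 23.4% of all genes did, and 1 in each interaction, where 3.05% and 12.7% did. The median log2 difference of the 9 genes was -0.07, -0.06 and -0.14 at the 3 time points, beside -0.01, 0.01 and -0.02 over all genes.

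Of 52 other p53 targets listed, 47 were tested. In WT mice 2 were called higher and 4 lower at 6 hours, and 5 higher and 4 lower at 24 hours, where 15.6% and 15.7% of all genes were called. In SIRTintKO mice 4 were called higher and 6 lower at 6 hours, and 7 higher and 7 lower at 24 hours, where 16.6% and 23% of all genes were called. Their median change was between -0.08 and 0.11 in these 4 comparisons, beside 0.01 to 0.04 over all genes. *Trp53* itself lay at -0.33 and 0.12 at 6 hours and at -0.47 and 0.28 at 24 hours in WT and SIRTintKO mice, with adjusted p of 0.0815 or more.

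*Tnfrsf10b*, a death receptor, rose at 24 hours by 3.48 in WT and 3.06 in SIRTintKO mice (adjusted p = 5.39e-05 and 4.53e-05). *Bbc3*, which encodes the BH3 protein PUMA, fell by 2.04 in WT mice and fell by 1.96 in SIRTintKO mice at 6 hours (adjusted p = 7.92e-07 and 4.80e-06). *Apaf1*, the caspase-activating scaffold, rose in SIRTintKO mice at 6 hours by 1.04 and at 24 hours by 1.34 in WT and 1.57 in SIRTintKO mice.

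The 12 metabolic and antioxidant p53 targets had negative medians, -0.38 and -0.48 at 6 hours and -0.55 and -0.50 at 24 hours in WT and SIRTintKO mice. At 24 hours 3 were called lower and 1 higher in WT mice, and 4 lower and 3 higher in SIRTintKO mice. The share of all tested genes called there was 15.7% in WT and 23% in SIRTintKO mice. *Gls2*, the liver glutaminase, fell by 2.21 in SIRTintKO mice at 24 hours (adjusted p = 1.49e-06) and was the 1 other p53 target called between genotypes, at -1.32 in SIRTintKO livers at 24 hours (adjusted p = 0.0219). *Sco2*, a copper chaperone of cytochrome c oxidase, had changes of -1.36 to -1.01 in the 4 comparisons with 0 hours, all called. *Ddit4*, an inhibitor of mTORC1, rose in all 4, by 1.82 to 2.80.

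Relatives of the 9 genes moved in both directions. *Btg3* rose by 2.78 to 3.60 in all 4 comparisons with 0 hours, whereas *Btg1* fell by 1.62 in WT mice and fell by 1.08 in SIRTintKO mice at 6 hours. *Ccng2*, the relative of *Ccng1*, fell by 1.70 in WT mice and fell by 2.09 in SIRTintKO mice at 6 hours. *Phlda1* fell by 2.32 in WT mice and fell by 2.12 in SIRTintKO mice at that time. Of 12 tested partners of Gadd45 signalling, 1 was called higher, 1 lower and 10 not at all in each of the 4 comparisons. The share of all tested genes called there was 15.6% to 23%. The p38 kinase *Mapk13* rose in all 4, by 1.499 to 2.81, and the p38 activator *Map2k6* was called lower in all 4, at -2.76 to -1.72.

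Cell cycle genes were measured beside these arrest genes. *Ccnd1*, the cyclin that commits hepatocytes to G1 progression, rose at 24 hours by 1.70 in WT and 2.95 in SIRTintKO mice (adjusted p = 0.00893 and 8.14e-06), and *Ccne1* by 2.88 and 2.97. Of 15 tested S and M phase genes, 0 were called higher in WT mice at either time and 2 were in SIRTintKO mice at 24 hours, *Mcm2* (1.05) and *Mcm5* (1.46). The shares of all tested genes called higher were 7.17% and 8.32% in WT mice at 6 and 24 hours and 11.9% in SIRTintKO mice at 24 hours. Called lower were *Mki67* in WT mice at 24 hours (-1.405), and *Ccnb2* (-1.10) and *Aurkb* (-1.86) in SIRTintKO mice at 6 hours. The shares of all tested genes called lower were 7.4% and 8.7% in these 2 comparisons. Between genotypes at 24 hours 0 of 9 tested G1 genes and 0 of the 15 S and M phase genes had an adjusted p under 0.05. Of all tested genes 5.81% did. The circadian clock list moved most at 6 hours, with 8 of 16 genes called higher and 3 lower in each genotype. At that time 15.6% of all tested genes were called in WT mice and 16.6% in SIRTintKO mice. The part of collection time in the 6 hour values was not tested.

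The spread between livers of a group was set beside other stress genes. A list of 12 immediate-early genes (*Fos*, *Fosb*, *Jun*, *Junb*, *Jund*, *Egr1*, *Ier2*, *Ier3*, *Nr4a1*, *Zfp36*, *Dusp1* and *Socs3*), chosen after the values had been seen, had a mean log2 CPM of 5.85, 6.73, 4.22 and 3.46 in the 4 WT livers at 24 hours, and *Cdkn1a*, *Btg2*, *Mdm2* and *Gadd45a* ranked these 4 livers in the same order. The remaining members ranked them otherwise. In deviations from the group means over the 34 libraries the immediate-early mean had a Pearson r of 0.92 with *Btg2*, 0.85 with *Gadd45a*, 0.71 with *Mdm2* and 0.68 with *Gadd45b*. With *Cdkn1a* and *Trp53inp1* it was 0.55, with *Gadd45g* 0.46, and with *Ccng1* and *Phlda3* -0.04 and 0.15. The list holds *Jun*, *Nr4a1* and *Junb*, which were among the 5 genes nearest to *Btg2* in these deviations. It also holds *Junb* and *Socs3*, which were among the 5 nearest to *Gadd45a*, and *Socs3* was the gene nearest to *Gadd45g* (r = 0.81). The r of the list with *Btg2*, *Gadd45a* and *Gadd45g* was therefore partly built in. The correlations are descriptions in which all genes share the same 34 libraries.

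**Figure D3:**
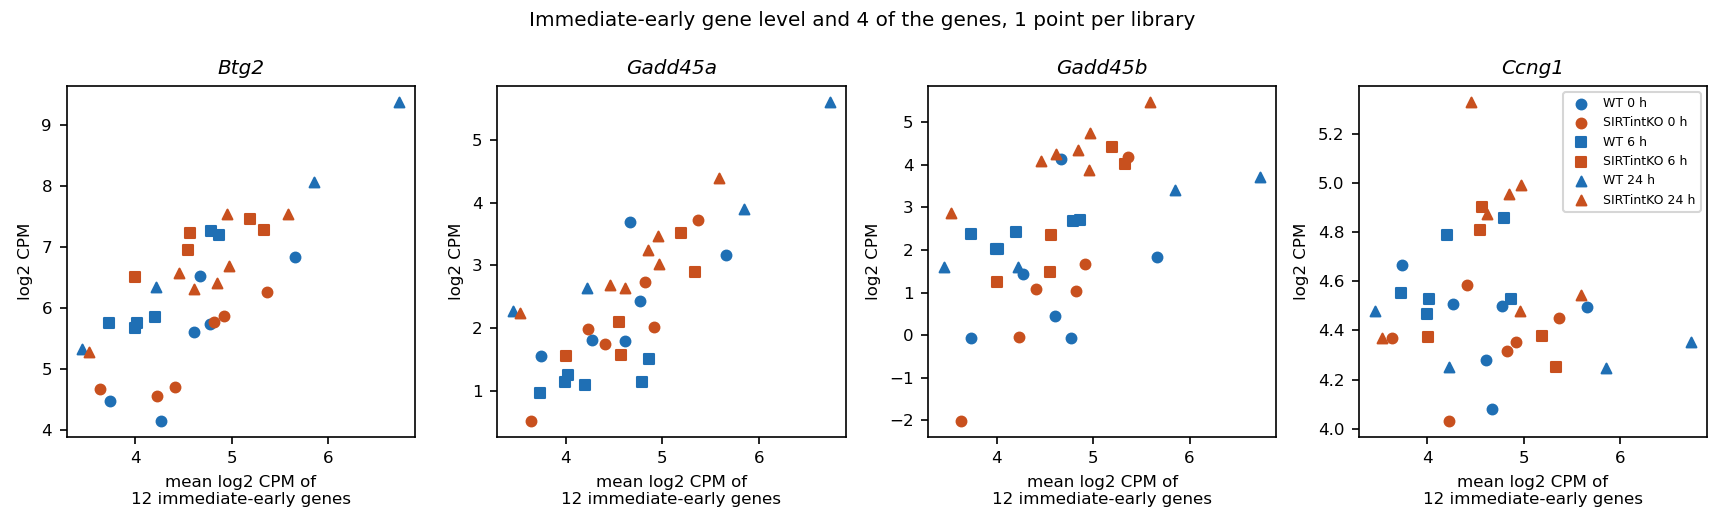
Log2 CPM of *Btg2*, *Gadd45a*, *Gadd45b* and *Ccng1* against the mean log2 CPM of 12 immediate-early genes, with 1 point per library, WT in blue, SIRTintKO in orange, and circles, squares and triangles for 0, 6 and 24 hours. *Btg2* and *Gadd45a* climb with the immediate-early mean, with WT replicate 2 at 24 hours at the top right (6.73 on the horizontal axis), while *Ccng1* shows no slope (r = -0.08).

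The genes whose log2 CPM ran closest to *Cdkn1a* over the 34 libraries were *Cwc27*, *Eftud2*, *Igfbp1*, *Mcrip1* and *Ddit4*, with Pearson r of 0.76 to 0.70 among 12386 genes of at least 1 CPM. *Gadd45a* ran closest to *Lnx2*, *Sox9*, *Lrrfip2*, *Nfkbiz* and *Ube2q1* (0.80 to 0.79). The nearest to *Gadd45b* were *Cxcl2*, *Ugcg*, *Atf3*, *Ppfibp1* and *Aebp2* (0.83 to 0.81), and to *Gadd45g* they were *Gm48199*, *Gm6493*, *Plk3*, *Csrnp1* and *Stap2* (0.75 to 0.71). Among the 9 genes themselves, deviations from the group means were most alike for *Gadd45a* with *Gadd45b* (r = 0.82) and *Btg2* (r = 0.80), and *Cdkn1a* with *Mdm2* gave 0.33.

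WT replicate 2 at 24 hours carried much of the WT change at that time. It had the highest *Cdkn1a*, *Btg2*, *Mdm2*, *Trp53inp1*, *Phlda3*, *Gadd45a* and *Gadd45b* of the 4 WT livers, and no member was called in WT mice at 24 hours against 0 hours when it was left out. In the comparison of 24 with 6 hours the count went from 3 to 1, and *Gadd45a* was the gene that stayed. Its total count of 19561395 and its hepatocyte marker sum of 52447 CPM stood beside 16335963 to 18160013 counts and 53464 to 66285 CPM in the other 3. WT replicates 1 and 2 at 24 hours also had more neutrophil marker RNA (120.3 and 101 CPM) and cholangiocyte marker RNA (483 and 264 CPM) than replicates 3 and 4 (14.1 and 7.91 CPM, and 64.8 and 79.2 CPM), and their part in these values was not tested.

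**Figure D4:**
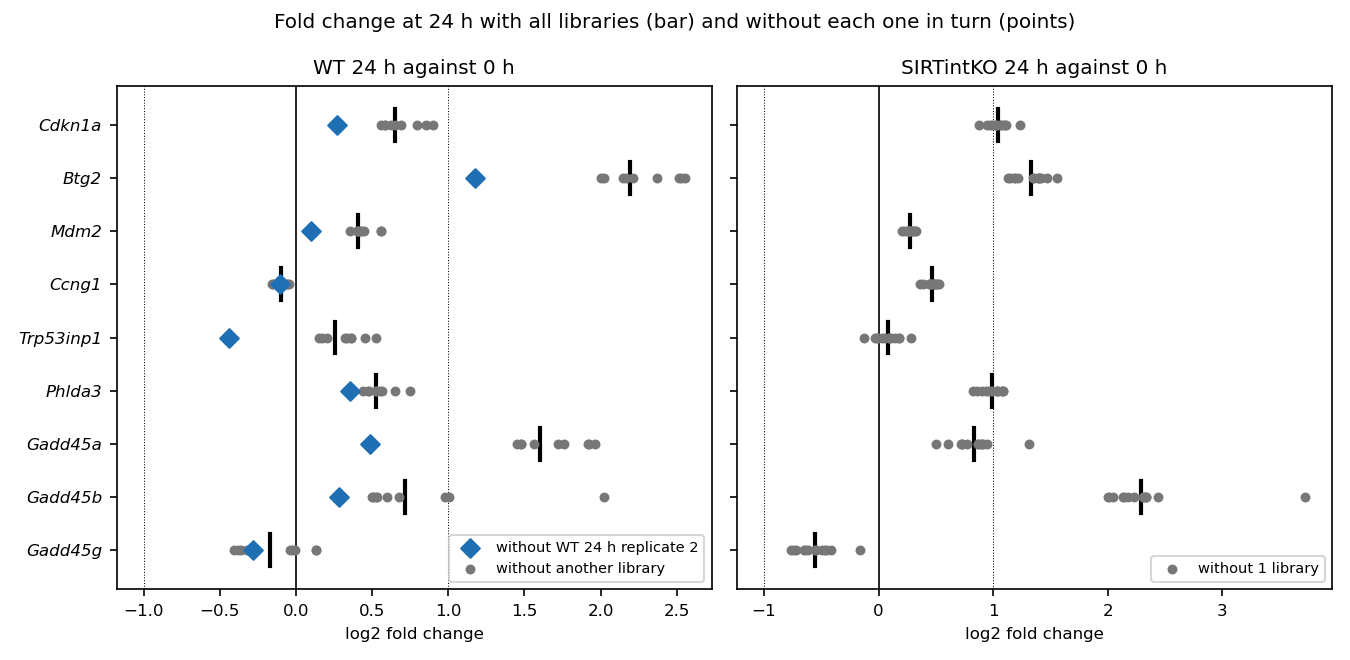
Log2 fold change at 24 hours against 0 hours with all libraries (black bars) and after leaving out each library of the groups compared in turn (points), in WT mice on the left and SIRTintKO mice on the right, with dotted lines at -1 and 1. Without WT replicate 2 (blue diamonds) *Btg2* moved from 2.19 to 1.17 and *Gadd45a* from 1.60 to 0.49. Without untreated SIRTintKO replicate 3 *Gadd45b* in SIRTintKO mice moved from 2.29 to 3.72.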

How the data were processed

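Polyadenylated RNA of 34 livers, 1 per mouse, had been sequenced with stranded paired-end libraries. The authors ran an nf-core workflow (STAR alignment, Salmon quantification, build GRCm39 per the labels) and deposited expected counts per gene, which carry no scaling for depth or length and of which 4.97% were not whole numbers. Of 35 value columns, 1 matched no label and was not used. Gene symbols had lost the letter x and were restored through gene identifiers for 1316 genes.

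Counts were rounded, scaled by TMM and filtered by group in edgeR 4.0.16 (R 4.3.3), and 14980 genes were fitted over the 6 groups with the quasi-likelihood test (two-sided, Benjamini-Hochberg over all genes tested, common BCV 0.302). DESeq2 1.42.0, other scalings, filters and left-out libraries were alternatives. The smallest chi-square per gene between libraries of 1 group was 16.1, so none was a repeat of another. Promoter letters are from RefSeq, GRCm38.p6. The 9 genes and the gene lists were chosen with earlier results of these data known. All 9 genes are named, and of each list the called genes with the largest changes and a mean of at least 1 CPM, up to 4 per comparison. The immediate-early list, *Ccnb2* and *Aurkb* were chosen after their values were seen.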

Additional observations from a re-analysis of the deposited data

Results flagged for a closer look

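Among 54 sets of values (9 genes in 6 groups), 4 held a single liver far from the rest of its group by Dixon's criterion. Chance alone meets it in about 1 of 20 groups if the values are normally distributed. It was applied to CPM and not to log2 CPM, the scale of the fold changes. In untreated livers the SD of *Gadd45b* CPM was 147% of the mean in WT and 157% in SIRTintKO mice. *Gadd45b* in untreated WT replicate 2 was 17.42 CPM with the next liver at 3.463 (gap over range 0.842, limit 0.625), and in untreated SIRTintKO replicate 3 it was 18.22 CPM with the next at 3.089 (0.837). *Gadd45a* in SIRTintKO replicate 4 at 24 hours was 20.98 CPM with the next at 10.9 (0.615, limit 0.568), and *Phlda3* in untreated WT replicate 1 was 1.371 CPM with the next at 0.7916 (0.698, limit 0.625). These 2 untreated *Gadd45b* livers also had the highest *Gadd45a* (12.8 and 13.03 CPM) and the highest *Gadd45g* (165 and 195 CPM) of their groups.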

How the results depend on the processing

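The counts of called genes were identical in all 11 comparisons with DESeq2 size factors. With upper-quartile scaling 4 were called in WT mice at 6 hours. With every gene of at least 1 count there were 2 in WT mice at 6 hours and 2 in WT mice at 24 against 6 hours. With at least 10 counts in every library (7 of the 9 genes tested, *Phlda3* and *Gadd45b* not) there were 2 in SIRTintKO mice at 24 hours, and with DESeq2 there were 4 there and 4 in WT mice at 24 against 6 hours. With the adjusted p alone the counts became 4 in WT mice at 6 hours, 2 in SIRTintKO mice at 6 hours, 5 in SIRTintKO mice at 24 hours and 1 between genotypes at 24 hours. Fitting only the groups compared left 0 in WT mice at 24 hours, 2 in WT mice at 6 hours and 2 in WT mice at 24 against 6 hours. Replicate numbers only name the mice: same-numbered livers of different groups correlated by -0.306 to 0.217 in their deviations, and 2 of 34 correlated best with their own number. With the replicate number as a block the counts became 4 for WT mice at 6 hours, 2 for SIRTintKO mice at 24 hours, 1 for WT mice at 24 against 0 hours, 1 for WT mice at 24 against 6 hours and 0 for SIRTintKO mice at 24 against 6 hours. Leaving out 1 library gave 1 to 3 calls (WT, 6 hours), 1 to 2 (SIRTintKO, 6 hours), 0 to 3 (WT, 24 hours), 1 to 4 (SIRTintKO, 24 hours), 1 to 3 (WT, 24 against 6 hours) and 0 to 2 (SIRTintKO, 24 against 6 hours), and 0 to 0 between genotypes and in the interactions. The lowest count in SIRTintKO mice at 24 hours, 1, came without untreated SIRTintKO replicate 4.

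Some values that were not called turned sign. *Mdm2* in WT mice at 6 hours became -0.00049 with DESeq2 size factors, -0.0081 with upper-quartile scaling, -0.017 with at least 10 counts and -0.00039 in DESeq2. *Mdm2* between untreated genotypes became 0.0029 with only the groups compared, and *Gadd45b* there 0.0068 in DESeq2. In the 6 hour interaction *Cdkn1a* became -0.023 with upper-quartile scaling, and *Ccng1* became -0.00046 with DESeq2 size factors, -0.0500 with upper-quartile scaling, -0.014 with at least 10 counts, -0.016 with only the groups compared and -0.00018 in DESeq2. *Trp53inp1* in the 24 hour interaction became 0.021 with the replicate block. Of 1332 single values with 1 library left out, 77 in 26 results turned sign, and 0 of those results had been called. Not all of these results lay near 0. With all libraries *Gadd45a* between genotypes at 24 hours was -0.967. *Btg2* was -0.864 in the 24 hour interaction and *Gadd45b* 0.896 in the 6 hour interaction. In WT mice at 6 hours *Mdm2* ranged from -0.0713 to 0.0672. In SIRTintKO mice at 6 hours *Gadd45a* ranged from -0.312 to 0.584. In WT mice at 24 hours *Trp53inp1* ranged from -0.439 to 0.528 and *Gadd45g* from -0.407 to 0.133. In SIRTintKO mice at 24 hours *Trp53inp1* ranged from -0.124 to 0.286. In WT mice at 24 against 6 hours *Cdkn1a* ranged from -0.260 to 0.313. In SIRTintKO mice at 24 against 6 hours *Mdm2* ranged from -0.153 to 0.0202. Between genotypes at 0 hours *Mdm2* ranged from -0.0590 to 0.0377, *Phlda3* from -0.162 to 0.153, *Gadd45a* from -0.682 to 0.168, *Gadd45b* from -1.47 to 1.27 and *Gadd45g* from -0.326 to 0.364. Between genotypes at 6 hours *Ccng1* ranged from -0.169 to 6.44e-05 and *Trp53inp1* from -0.393 to 0.00516. Between genotypes at 24 hours *Cdkn1a* ranged from -0.266 to 0.317, *Mdm2* from -0.299 to 0.176, *Trp53inp1* from -0.925 to 0.0584 and *Gadd45a* from -1.30 to 0.144. In the 6 hour interaction *Cdkn1a* ranged from -0.287 to 0.242, *Ccng1* from -0.100 to 0.0737 and *Gadd45b* from -0.411 to 2.33. In the 24 hour interaction *Btg2* ranged from -1.22 to 0.149, *Mdm2* from -0.300 to 0.178, *Trp53inp1* from -0.470 to 0.514, *Gadd45a* from -1.14 to 0.335 and *Gadd45g* from -0.709 to 0.00636.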

Other observations

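Other listed gene groups were measured beside the 9 genes. Of 7 other growth arrest and DNA damage genes, 1 and 2 were called higher at 6 hours and 3 and 4 at 24 hours in WT and SIRTintKO mice, and 0 lower. Of all tested genes 7.17% and 7.86% were called higher at 6 hours and 8.32% and 11.9% at 24 hours. *Atf3*, a stress-induced transcription factor, lay at 0.69 in WT mice at 6 hours (adjusted p = 0.428) and rose by 2.46 in SIRTintKO mice at 6 hours, by 3.23 in WT mice at 24 hours and by 4.05 in SIRTintKO mice at 24 hours (adjusted p = 0.00569, 0.000664 and 1.72e-05). Of 10 tested senescence genes, 3 were called higher in WT mice at each time, and 3 and 6 in SIRTintKO mice at 6 and 24 hours. Between genotypes at 24 hours 3 of these 10 were called higher in SIRTintKO livers, where 1.38% of all tested genes were. Of 5 tested inhibitors of cyclin-dependent kinases other than *Cdkn1a*, 1 was called higher in that comparison. Of 15 inducers of *Cdkn1a* other than p53, 1 was called higher and 3 lower in WT mice at 6 hours, and 3 and 3 in SIRTintKO mice. At 24 hours 4 were called higher and 0 lower in WT mice, and 3 higher and 3 lower in SIRTintKO mice. Of all tested genes 8.4% and 8.7% were called lower at 6 hours and 7.4% and 11.1% at 24 hours. Between genotypes at 24 hours 0 of the 15 were called higher and 2 lower, where 1.38% and 1.3% of all tested genes were.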
